A study of Mus musculus with 12 samples.

Results

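The interferon-inducible GTPases described here are 10 mouse genes of the guanylate-binding protein (GBP) and immunity-related GTPase (IRG) families: Gbp2, Gbp3, Gbp4, Gbp5, Gbp6, Gbp7, Gbp9, Igtp, Irgm1 and Irgm2. They were chosen by name, and 8 of the 10 were measured, out of 19494 genes on the arrays; no probe set was named Gbp5 or Gbp6. The 12 arrays came from cells of transplanted mouse bone marrow, in 4 groups of 3: NFAT5-deficient HSC, wild-type HSC, NFAT5-deficient MPP and wild-type MPP. NFAT5-deficient donors were Nfat5 fl/fl Vav-Cre, in which Cre is driven by regulatory elements of Vav, a gene active throughout the blood system, and wild-type donors were Nfat5 +/+ Vav-Cre, so both carried Cre. Donors had the CD45.2 allele, and their marrow was placed in irradiated CD45.1 wild-type recipients. After 13 weeks, CD45.2-positive hematopoietic stem cells (HSC, CD150-positive and CD48-negative) and multipotent progenitors (MPP, CD150-negative and CD48-positive) were sorted within the LSK gate (negative for lineage markers, positive for Sca-1 and Kit). The labels give neither age nor sex, and do not say whether the numbers in the array titles (64, 70 and 76 for NFAT5-deficient, 66, 67 and 75 for wild-type) stand for donors, recipients or pools, so every p-value measures the spread between these samples only.

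GBPs and IRGs are GTP-binding proteins of cell-autonomous immunity, which is the defence that a cell mounts against microbes inside itself. Interferon gamma acts through its receptor and the kinases JAK1 and JAK2, and its target promoters often carry gamma-activated sites (GAS). IRF1 and other interferon-regulatory factors act through interferon-stimulated response elements (ISRE). GBPs gather on pathogen-containing vacuoles and on bacteria and help to break them open, and effector IRGs do the same to vacuoles, while the regulatory IRGs (Irgm1, Irgm2 and Igtp, also called Irgm3) sit on the cell's own membranes and keep the effectors inactive there. In blood stem cells, interferons are known to end quiescence, and mice lacking Irgm1 are known for HSC that proliferate too much and perform poorly on transplantation. NFAT5, the deleted gene product, is a transcription factor that switches on protective genes when cells meet hypertonic surroundings.

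Promoters of 5 members are printed to show the interferon motifs they carry: Gbp2, which had the largest genotype difference in HSC, Gbp7 and Igtp, which had the largest differences between populations, Irgm2, the neighbour of Igtp, and Irgm1. Over both genotypes, the uncalled HSC minus MPP difference of Irgm1 had the opposite sign to those of the others printed. Each promoter runs 5′ to 3′ on the gene's strand, from 250 bases before to 50 bases after the start (RefSeq, GRCm38.p6). Capitals mark the motifs: the GAS letters TTCNNNGAA, which read the same on both strands, and the ISRE core, which is GAAA, any 2 bases and GAAA, or its reverse complement, which is TTTC, any 2 bases and TTTC. Gbp2 lies at chr3:142620413-142620712 (plus strand), Gbp7 at chr3:142530086-142530385 (plus), Igtp at chr11:58199306-58199605 (plus), Irgm2 at chr11:58214727-58215026 (plus) and Irgm1 at chr11:48871371-48871670 (minus).
Gbp2: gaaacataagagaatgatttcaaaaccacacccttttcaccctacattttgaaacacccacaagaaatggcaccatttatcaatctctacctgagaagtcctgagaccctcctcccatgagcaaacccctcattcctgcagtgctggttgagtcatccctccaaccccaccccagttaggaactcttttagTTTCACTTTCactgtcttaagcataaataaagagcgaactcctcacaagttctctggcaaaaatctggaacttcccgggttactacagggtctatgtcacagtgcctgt
Gbp7: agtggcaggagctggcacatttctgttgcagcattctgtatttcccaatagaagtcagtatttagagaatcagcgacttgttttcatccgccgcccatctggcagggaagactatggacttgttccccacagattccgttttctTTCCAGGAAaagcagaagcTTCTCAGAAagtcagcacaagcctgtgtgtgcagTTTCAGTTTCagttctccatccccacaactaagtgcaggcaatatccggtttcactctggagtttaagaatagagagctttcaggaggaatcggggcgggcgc
Igtp: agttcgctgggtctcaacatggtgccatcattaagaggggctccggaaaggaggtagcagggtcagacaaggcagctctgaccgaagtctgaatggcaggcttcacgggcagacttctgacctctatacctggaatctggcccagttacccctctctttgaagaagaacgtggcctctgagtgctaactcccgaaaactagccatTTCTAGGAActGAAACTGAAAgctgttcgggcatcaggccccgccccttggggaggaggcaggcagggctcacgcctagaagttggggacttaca
Irgm2: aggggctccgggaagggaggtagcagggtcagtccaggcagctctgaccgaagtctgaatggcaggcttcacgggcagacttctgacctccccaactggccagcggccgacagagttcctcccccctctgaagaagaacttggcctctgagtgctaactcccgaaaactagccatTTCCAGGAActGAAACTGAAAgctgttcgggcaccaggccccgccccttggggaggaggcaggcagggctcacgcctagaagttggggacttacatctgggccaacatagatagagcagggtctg
Irgm1: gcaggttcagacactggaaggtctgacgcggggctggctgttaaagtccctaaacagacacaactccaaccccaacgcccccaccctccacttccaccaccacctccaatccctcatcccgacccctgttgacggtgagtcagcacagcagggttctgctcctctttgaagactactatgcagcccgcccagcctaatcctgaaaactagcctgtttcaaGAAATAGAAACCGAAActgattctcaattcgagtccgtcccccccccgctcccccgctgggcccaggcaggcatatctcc

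Of the 10 genes, 7 had a promoter entry (8 entries, since Gbp3 has 2), and Gbp4, Gbp6 and Gbp9 are named only. The ISRE core was in 7 of the 8 entries, against 3.44% of 32851 promoters of this length, and GAS was in 4 of the 8, against 8.3%. Gbp5, Gbp7, Igtp and Irgm2 held both motifs, as 0.454% of all promoters did. With positions counted from the start, GAS lay at -45 to -37 and the ISRE core at -34 to -25 in Igtp. The same pair lay at -75 to -67 and -64 to -55 in Irgm2, and the aligned promoters of Igtp and Irgm2 were identical at 73.5% of positions, against at most 54.2% for any other pair of entries. Gbp7 held 2 GAS matches (-106 to -98 and -87 to -79) and 1 ISRE core (-53 to -44). Gbp2 held 1 ISRE core (-59 to -50), and Irgm1 held 2 that overlap (-30 to -21 and -24 to -15). These matches describe letters, not binding. The genes lie in clusters: Gbp5, Gbp7, Gbp3 and Gbp2 on chromosome 3, with Gbp2b between the last pair; Gbp9, Gbp4 and Gbp6 on chromosome 5, beside Gbp8 and Gbp10; and Igtp beside Irgm2 on chromosome 11, where Irgm1 also lies.

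Array values are the authors' log2 intensities, where 1 unit is a doubling, and levels are compared between arrays for a gene, never between genes. Array medians lay between 6.402 and 6.531. As a level for low signal, the 95th percentile of the single-array values of 1091 olfactory receptor genes was 6.357. Nfat5 read 8.76, 8.34 and 7.62 on NFAT5-deficient HSC arrays 64, 70 and 76, against 9.81, 9.38 and 9.27 on wild-type HSC arrays 66, 67 and 75. In MPP it read 7.63, 7.73 and 8.40, against 8.78, 8.85 and 8.12, so the genotypes overlapped there, and whether its 1 probe set lies in the deleted part is not given. Slamf1 (CD150) averaged 10.08 and 9.84 in NFAT5-deficient and wild-type HSC, against 6.46 and 6.26 in the MPP groups, Cd48 averaged 6.50 and 6.48, against 10.28 and 9.92, and Kit lay between 11.16 and 11.43 in all 4 groups. No probe set was named Ly6a (Sca-1). The mean of 9 mature neutrophil genes was 5.42 to 5.53 on NFAT5-deficient HSC arrays, with 0 of 9 above the low-signal level, and 6.88, 7.38 and 5.52 on wild-type HSC arrays 66, 67 and 75. It was 6.01 to 6.62 in NFAT5-deficient MPP and 5.96 to 7.02 in wild-type MPP. Over the 12 arrays, the means of the measured monocyte and macrophage (11), B cell (5), dendritic cell (7) and endothelial (6) markers lay between 5.94 and 6.37, 6.01 and 6.50, 6.19 and 6.77, and 6.10 and 6.85. Wild-type HSC array 66 and NFAT5-deficient HSC array 70 stood apart in earlier results of these data. In sorted cell pools, a change in the share of cells that express a gene cannot be told apart from a change in RNA per cell.

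All measured members but Gbp9 averaged above the low-signal level over the 12 arrays. Gbp9 lay between 4.83 and 6.03 on all 12 arrays, so its differences may not be resolved. Gbp4 lay close to that level in MPP. Sequence shared between near-identical GBPs can let 1 probe set read several genes, and this was not tested.

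**Figure D1:**
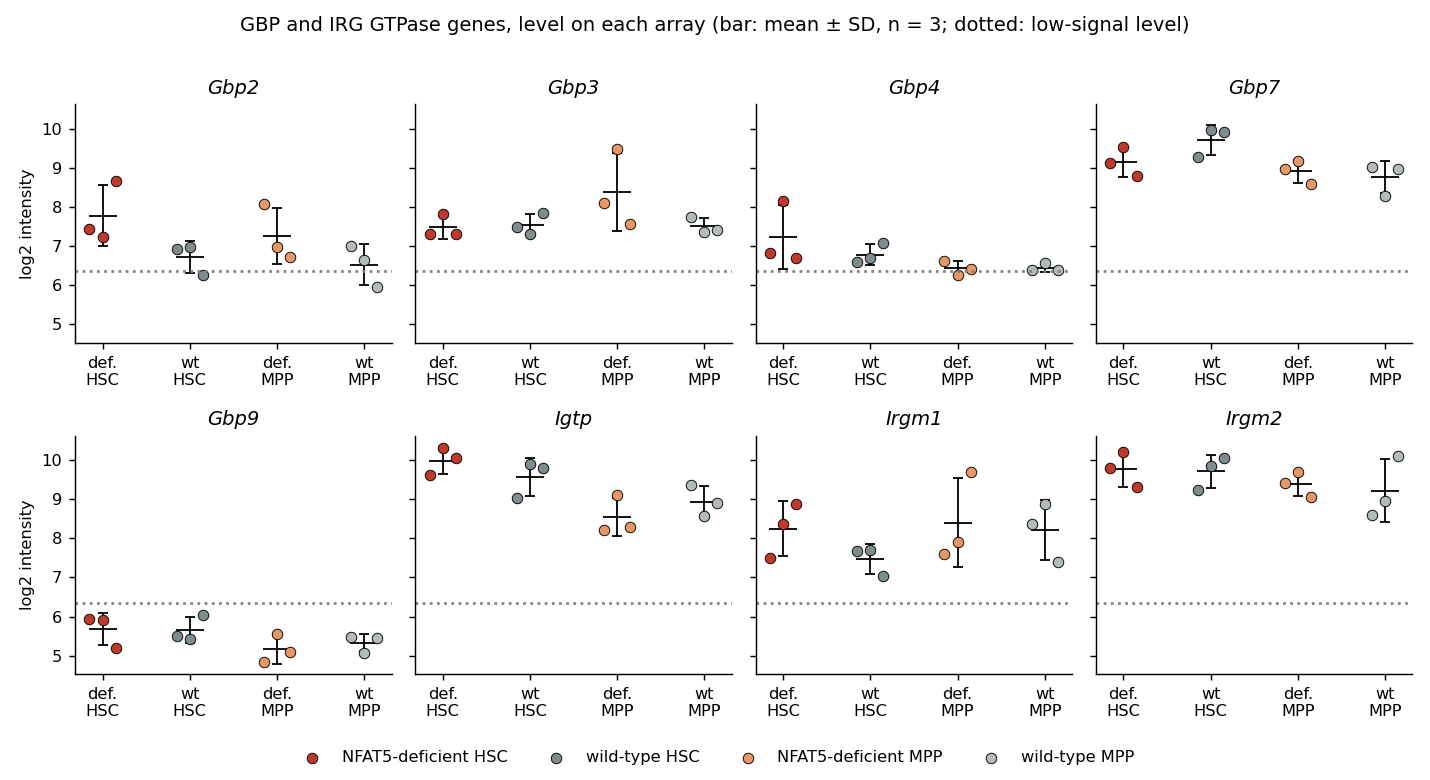
Log2 intensity of the 8 measured GTPase genes on each of the 12 arrays, with def. for NFAT5-deficient and wt for wild-type; points are arrays (title numbers in rising order within a group), horizontal marks with bars are means ± SD (n = 3), and the dotted line is the low-signal level of 6.357. Igtp averages 9.99 and 9.57 in NFAT5-deficient and wild-type HSC, above its 8.54 and 8.94 in NFAT5-deficient and wild-type MPP, Gbp2 is higher on all 3 NFAT5-deficient HSC arrays than on the wild-type ones, and Gbp9 stays under the line.

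No member passed the test for the loss of NFAT5 in HSC (limma, adjusted over 19494 genes, called at an adjusted p under 0.05), and neither did any other gene (0% called). Of all genes, 1205 (6.18%) had an unadjusted p under 0.05 there. Gbp2 was the member with the largest difference. Its protein coats the vacuole of Toxoplasma in mouse cells.

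Gbp2 read 7.44, 7.22 and 8.66 on NFAT5-deficient HSC arrays 64, 70 and 76, against 6.92, 6.97 and 6.26 on wild-type HSC arrays 66, 67 and 75. The genotypes did not overlap, with array 76 the highest and wild-type array 75 the lowest. Over all genes, 10.2% did not overlap between genotypes in HSC, 3.55% with the NFAT5-deficient arrays higher. Gbp2 averaged 7.77 ± 0.77 in NFAT5-deficient and 6.72 ± 0.40 in wild-type HSC (SD, n = 3 each), a difference of 1.06 (SE 0.46, 95% interval 0.04 to 2.07), or 208% of the wild-type level. The unadjusted limma p was 0.0432 and the adjusted p was 0.793. The exact two-sided permutation p was 0.1, the smallest that 3 against 3 arrays allow. The difference was 0.614 without NFAT5-deficient HSC array 76. Neutrophil genes were higher on wild-type arrays 66 and 67 than on the other HSC arrays. Without those arrays the Gbp2 difference was 1.51. This left only wild-type array 75, the lowest for Gbp2, so the part of the neutrophil signal was not tested. Without NFAT5-deficient array 70 and wild-type array 66 the Gbp2 difference was 1.43 (limma adjusted p = 0.889).

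In MPP, Gbp2 read 8.07, 6.98 and 6.72 on NFAT5-deficient arrays 64, 70 and 76, against 6.99, 6.63 and 5.95 on wild-type arrays 66, 67 and 75. Here the groups overlapped, since array 66 read as high as NFAT5-deficient array 70. The difference was 0.73 (SE 0.46, limma adjusted p = 0.899). It was 0.325 without NFAT5-deficient MPP array 64 and 0.445 without wild-type MPP array 75. With HSC and MPP averaged per title number, Gbp2 was 7.76, 7.10 and 7.69 for the NFAT5-deficient numbers, against 6.96, 6.80 and 6.11 for the wild-type ones. These means did not overlap, as for 3.64% of genes in that direction. For these means the exact two-sided permutation p was 0.1, the smallest possible there. The fitted difference over both populations was 0.89 (SE 0.33, limma unadjusted p = 0.0196, adjusted p = 0.687). In that comparison 7.11% of all genes had an unadjusted p under 0.05 and 0% were called. The fit took HSC and MPP arrays with the same title number as independent. Whether they share a mouse is not given, so its p-values hold only if they are independent.

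Irgm1 had the next largest value in HSC. It read 7.50, 8.38 and 8.87 on NFAT5-deficient arrays 64, 70 and 76, against 7.68, 7.69 and 7.03 on wild-type arrays 66, 67 and 75. NFAT5-deficient array 64 lay among the wild-type values, so the groups overlapped. The means were 8.25 ± 0.69 and 7.47 ± 0.38 (SD, n = 3 each), with a difference of 0.78 (SE 0.58, limma adjusted p = 0.897). In MPP, Irgm1 read 7.61, 7.90 and 9.69 in NFAT5-deficient cells, against 8.37, 8.88 and 7.38 in wild-type cells. Its replicates spread widely there (SD 1.13 in NFAT5-deficient and 0.76 in wild-type MPP), and array 76 was highest in both NFAT5-deficient populations. The difference in MPP was 0.19 (SE 0.58, limma adjusted p = 0.976), and its sign turned without array 76 (-0.46) or without wild-type MPP array 75 (-0.23).

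The other IRG genes did not separate the genotypes. Irgm2 read 9.80, 10.22 and 9.31 in NFAT5-deficient HSC, against 9.23, 9.84 and 10.05 in wild-type HSC, a difference of 0.07 (95% interval -0.82 to 0.96), which was -0.39 without NFAT5-deficient array 70 and wild-type array 66. In MPP, Irgm2 read 9.41, 9.68 and 9.07 in NFAT5-deficient cells, against 8.60, 8.96 and 10.11 in wild-type cells (difference 0.17). The wild-type MPP arrays spanned the NFAT5-deficient ones on both sides. Igtp read 9.61, 10.31 and 10.05 in NFAT5-deficient HSC, against 9.02, 9.89 and 9.79 in wild-type HSC, a difference of 0.42 (SE 0.35, limma adjusted p = 0.908), which was -0.01 without the same pair of arrays. In MPP its sign was opposite: Igtp read 8.22, 9.10 and 8.29 in NFAT5-deficient cells, against 9.37, 8.56 and 8.89 in wild-type cells, a difference of -0.40 (SE 0.35, limma adjusted p = 0.899). The groups overlapped in both populations.

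Among the other GBPs, Gbp3 had the largest genotype value in MPP. It read 8.10, 9.48 and 7.55 on NFAT5-deficient MPP arrays 64, 70 and 76, against 7.74, 7.36 and 7.41 on wild-type MPP arrays 66, 67 and 75. Array 76 lay among the wild-type values, and array 70 carried much of the difference of 0.88 (SE 0.42, limma unadjusted p = 0.0615, adjusted p = 0.896), which was 0.33 without it. In HSC, Gbp3 read 7.29, 7.82 and 7.31 in NFAT5-deficient cells, against 7.48, 7.30 and 7.83 in wild-type cells (difference -0.06). Gbp7, whose protein in mice helps to place the phagocyte oxidase on vacuoles, was the member with the lowest value in NFAT5-deficient relative to wild-type HSC. It read 9.12, 9.53 and 8.79, against 9.27, 9.96 and 9.90, a difference of -0.56 (SE 0.31, limma adjusted p = 0.852), with array 70 inside the wild-type range. In MPP, Gbp7 read 8.97, 9.16 and 8.59 in NFAT5-deficient cells, against 9.02, 8.28 and 8.98 in wild-type cells (difference 0.15).

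Gbp4 read 6.83, 8.16 and 6.70 in NFAT5-deficient HSC, against 6.58, 6.69 and 7.07 in wild-type HSC. Array 70 stood alone, and the difference of 0.45 was -0.02 without it. In MPP, Gbp4 read 6.62, 6.26 and 6.41 in NFAT5-deficient cells, against 6.39, 6.56 and 6.38 in wild-type cells (difference -0.02, which was 0.03 with arrays centred on their median or quantile-normalized). Gbp9, under the low-signal level, differed by 0.02 in HSC and by -0.17 in MPP.

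Counted together, the NFAT5-deficient mean in HSC was above the wild-type mean for 6 of the 8 measured members and below it for 2, with 0 called. The median difference was 0.24, against -0.05 over all genes, and adjusted p-values ran from 0.793 to 0.995. Without wild-type array 66 and NFAT5-deficient array 70, the median was -0.14. It was -0.06 without wild-type arrays 66 and 67, which left only wild-type HSC array 75. In MPP, 5 members were above and 3 below wild-type, with 0 called where 0.00513% of genes (1 gene) were. There 0 of 8 members had an unadjusted p under 0.05, against 5.35% of genes, 0 of 8 had genotypes that did not overlap, against 12.6%, and the median was 0.16, against -0.07 over all genes. That median was 0.0433 without NFAT5-deficient MPP array 70 and 0.0372 without wild-type MPP array 67. With 3 arrays a group, the 95% intervals reached 0.555 to 1.29 log2 units to either side of the difference. These widths hold for single genes and set no limit for a call, which is adjusted over all genes. In HSC the interval of Gbp2, 0.04 to 2.07, lay above 0, yet its limma adjusted p was 0.793. How large a change had to be for a call was not tested.

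**Figure D2:**
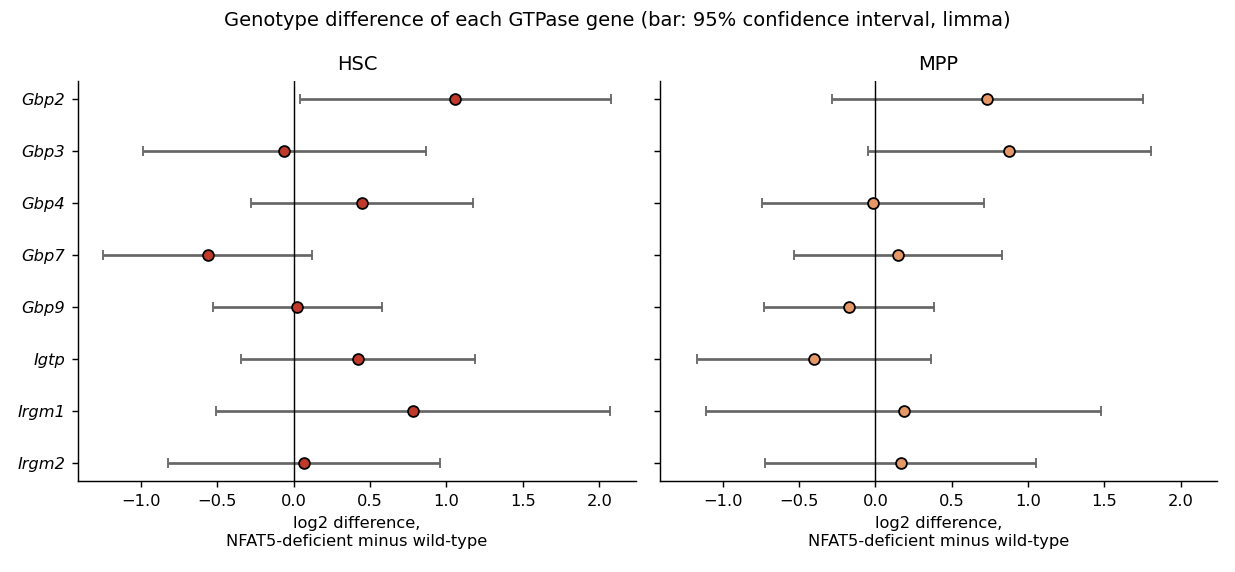
Genotype difference of each measured GTPase gene on the log2 scale, NFAT5-deficient minus wild-type, in HSC (left) and MPP (right); points are fitted differences and bars 95% confidence intervals from limma over 12 arrays. The interval of Gbp2 in HSC, 0.04 to 2.07, lies above 0, but no member passed the adjusted test.

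The genotype effect itself was compared between HSC and MPP as an interaction. No member passed (0% of all genes were called; 4.19% had an unadjusted p under 0.05, against 0 of 8 members). The largest sizes were -0.94 for Gbp3 (SE 0.59), 0.82 for Igtp (SE 0.49) and -0.71 for Gbp7 (SE 0.44), each with a limma adjusted p of 0.999. The Gbp3 value was -0.389 without NFAT5-deficient MPP array 70, and the Gbp7 value was -0.472 without wild-type MPP array 67. The opposite signs of Igtp in HSC and MPP were therefore not shown to differ.

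Between populations, Igtp had the largest difference, with HSC above MPP. In NFAT5-deficient cells it read 9.61, 10.31 and 10.05 on HSC arrays 64, 70 and 76, against 8.22, 9.10 and 8.29 on MPP arrays of the same numbers. These groups did not overlap, as for 16.9% of all genes (11.5% with HSC higher). The means were 9.99 ± 0.35 in HSC and 8.54 ± 0.49 in MPP (SD, n = 3 each), a difference of 1.45 (SE 0.35, limma unadjusted p = 0.00168, adjusted p = 0.245). In wild-type cells the values were 9.02, 9.89 and 9.79 on HSC arrays 66, 67 and 75, against 9.37, 8.56 and 8.89 on MPP arrays. HSC array 66 lay below MPP array 66, so the groups overlapped, and the difference was 0.63 (SE 0.35, limma adjusted p = 0.657). Over both genotypes the difference was 1.04 (SE 0.25, 95% interval 0.49 to 1.58, limma unadjusted p = 0.00154, adjusted p = 0.113), a ratio of 2.05. Within title numbers HSC was higher in 5 of 6. The numbers were not shown to pair arrays, so this count and those below are descriptive only. Igtp missed the threshold in each setting tried, with adjusted p-values from 0.0812, without wild-type HSC array 66, to 0.26.

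Gbp7 showed the largest population difference in wild-type cells. It read 9.27, 9.96 and 9.90 on wild-type HSC arrays, against 9.02, 8.28 and 8.98 on wild-type MPP arrays. The groups did not overlap, as for 12.3% of genes (7.54% with HSC higher), and differed by 0.95 (SE 0.31, limma unadjusted p = 0.0109, adjusted p = 0.373). In NFAT5-deficient cells the HSC values of 9.12, 9.53 and 8.79 overlapped the MPP values of 8.97, 9.16 and 8.59 (difference 0.24, SE 0.31). Over both genotypes Gbp7 differed by 0.59 (limma adjusted p = 0.32), with HSC higher for 6 of 6 numbers.

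Gbp4 and Gbp9 were also higher in HSC for 6 of 6 numbers, as were 5.61% of all genes. Gbp4 was 6.83, 8.16 and 6.70 in NFAT5-deficient HSC, against 6.62, 6.26 and 6.41 in NFAT5-deficient MPP, with no overlap and a difference of 0.80 (limma adjusted p = 0.587), which was 0.34 without HSC array 70 and wild-type HSC array 66. In wild-type cells it was 6.58, 6.69 and 7.07 in HSC, against 6.39, 6.56 and 6.38 in MPP, also without overlap (difference 0.34). Such non-overlap, with HSC higher, held for 11.5% of all genes in NFAT5-deficient and 7.54% in wild-type cells. Over both genotypes Gbp4 differed by 0.57 (limma adjusted p = 0.372) and Gbp9 by 0.42 (adjusted p = 0.38), Gbp9 within low signal. Irgm2 was higher in HSC for 5 of 6 numbers, with a difference of 0.44, and Gbp2 for 4 of 6, with 0.35.

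Gbp3 and Irgm1 ran the other way, with HSC lower for 5 of 6 numbers each. Gbp3 was 7.29, 7.82 and 7.31 in NFAT5-deficient HSC, against 8.10, 9.48 and 7.55 in NFAT5-deficient MPP (difference -0.90, SE 0.42, limma adjusted p = 0.64). Without NFAT5-deficient MPP array 70, the highest, the difference was -0.354. In wild-type cells its difference was 0.04. Irgm1 differed by -0.15 between NFAT5-deficient HSC and MPP and by -0.75 between wild-type HSC and MPP (SE 0.58 each). HSC and MPP arrays overlapped in both genotypes for Gbp3 and for Irgm1.

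**Figure D3:**
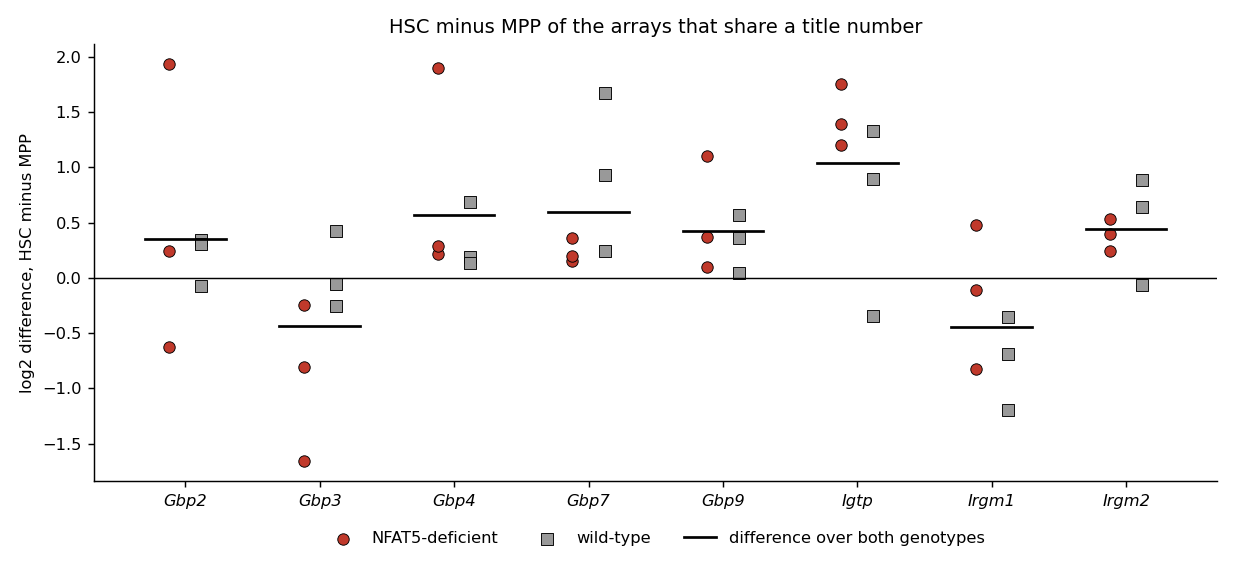
HSC minus MPP on the log2 scale for the 2 arrays that share a title number, for each measured GTPase gene; circles are NFAT5-deficient numbers, squares wild-type numbers, and horizontal marks the fitted difference over both genotypes. Gbp4, Gbp7 and Gbp9 lie above 0 for 6 of 6 numbers and Igtp for 5 of 6, while Gbp3 and Irgm1 are above 0 for 1 of 6.

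Over both genotypes, HSC were above MPP for 6 of the 8 measured members and below for 2, and 4 (Gbp4, Gbp7, Gbp9 and Igtp) had an unadjusted limma p under 0.05, where 12.2% of all genes did. None was called, against 0.61% of all genes, and adjusted p-values ran from 0.113 to 0.677. The median difference was 0.43, against 0.06 over all genes. Within wild-type cells 7 were higher and 1 lower (median 0.33, against 0.05 over all genes; 0.164% of genes were called, and 8.9% had an unadjusted p under 0.05, as 1 member did), and within NFAT5-deficient cells 6 and 2 (median 0.45, against 0.07; 0.21% called, and 7.9% with an unadjusted p under 0.05, as 2 members had). The mean of 3 measured erythroid markers was 6.42 to 6.65 in NFAT5-deficient HSC, against 6.86 to 7.52 in NFAT5-deficient MPP, and 6.28 to 6.60 in wild-type HSC, against 6.69 to 7.53 in wild-type MPP, with 2 of 3 above the low-signal level in HSC and 3 of 3 in MPP. Of the 3, Car1, a carbonic anhydrase gene, differed by -2.35 between HSC and MPP over both genotypes (SE 0.30, limma adjusted p = 0.0046). In NFAT5-deficient cells its difference was -2.63, against -0.06 for Alas2 and 0.31 for Klf1. The mean of 10 T and NK cell markers was 5.54 to 5.57 in NFAT5-deficient HSC, against 5.71 to 5.75 in NFAT5-deficient MPP (2 and 3 of 10 above that level), while in wild-type cells 5.48 to 5.83 in HSC overlapped 5.66 to 5.81 in MPP. Of these 10, Nkg7, a cytotoxic granule gene, differed by -1.73 over both genotypes (SE 0.20, limma adjusted p = 0.00356), and 5 of the 10 were higher in HSC than in MPP of NFAT5-deficient cells. Among the endothelial markers, Kdr differed by 0.56 over both genotypes (SE 0.09, limma adjusted p = 0.0267), and Pecam1 by -1.03 (adjusted p = 0.0787). The neutrophil mean also separated NFAT5-deficient HSC (0 of 9 above) from NFAT5-deficient MPP (4 of 9 above). The part of these markers in the GTPase values was not tested. Without wild-type HSC arrays 66 and 67, which left only wild-type HSC array 75, the wild-type median was 0.66. The Igtp difference over both genotypes was then 1.15. Without NFAT5-deficient HSC array 70 and wild-type HSC array 66 the Igtp difference was 1.09.

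The order of the 4 group means differed between members. Igtp, Gbp4 and Gbp9 ran from NFAT5-deficient HSC through wild-type HSC and wild-type MPP to NFAT5-deficient MPP, the lowest. Gbp2 ran from NFAT5-deficient HSC through NFAT5-deficient MPP and wild-type HSC to wild-type MPP, and Irgm2 from NFAT5-deficient HSC through wild-type HSC and NFAT5-deficient MPP to wild-type MPP. Gbp7 was highest in wild-type HSC and lowest in wild-type MPP. Gbp3 and Irgm1 were highest in NFAT5-deficient MPP, with Gbp3 lowest in NFAT5-deficient HSC and Irgm1 in wild-type HSC. Neighbouring groups in these orders overlapped, except wild-type HSC and wild-type MPP for Gbp4. The group means spanned 1.45 log2 units for Igtp, 1.25 for Gbp2 and 0.55 for Irgm2.

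Across the 12 arrays, Gbp4, Gbp7, Gbp9, Igtp and Irgm2 varied together (Pearson r of 0.442 to 0.698 for 10 of 10 pairs positive), a set picked after its values were seen. With group means removed, the same pairs gave 0.228 to 0.748. Irgm1 correlated negatively with each of the 5 (-0.661 to -0.0749). Of all 28 pairs, 16 were positive. These arrays share groups, amplification and processing, so the coefficients describe them only. The genes with the pattern most like Igtp over 12 arrays were Vwce (r = 0.921), Cilp (0.902), Inmt (0.901), Olfr593 (0.9) and Meiob (0.895), and these 5 averaged below the low-signal level. Most like the mean of the members above that level were 4930548H24Rik (0.951), Flt3l (0.931), Cpne8 (0.918), Tnfsf4 (0.886) and Krtap4-16 (0.884), of which Flt3l and Krtap4-16 averaged above it.

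Relatives outside the list gave the 1 call among the interferon gene lists, for HSC minus MPP over both genotypes. In that comparison 0.61% of all genes were called. Of 19 other GBP, IRG and giant interferon-inducible GTPase genes, 10 were measured. Over both genotypes HSC were above MPP for 9 and below for 1, with a median of 0.29. F830016B08Rik, an IRG relative, rose in HSC. It read 7.21, 7.21 and 6.84 in NFAT5-deficient HSC, against 6.19, 6.49 and 6.20 in NFAT5-deficient MPP, and 6.71, 6.69 and 7.48 in wild-type HSC, against 5.84, 6.02 and 5.42 in wild-type MPP. HSC lay above MPP on all arrays of each genotype, with a difference of 0.999 (SE 0.17, limma adjusted p = 0.0305), although 5 of the 6 MPP values were below the low-signal level. The call was lost when NFAT5-deficient HSC array 64 or 70, NFAT5-deficient MPP array 64 or 76, or wild-type MPP array 66 or 75 was left out (limma adjusted p from 0.057 to 0.0925), and without both NFAT5-deficient HSC array 70 and wild-type HSC array 66 (0.0901).

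Iigp1, an effector IRG that attacks the Toxoplasma vacuole in mice, read 10.57, 9.06 and 8.18 in NFAT5-deficient HSC, against 7.50, 7.62 and 7.87 in NFAT5-deficient MPP. It read 7.86, 8.69 and 8.67 in wild-type HSC, against 7.47, 6.92 and 7.53 in wild-type MPP. HSC lay above MPP without overlap in both genotypes, but the difference over both, 1.35 (SE 0.36), had a limma adjusted p of 0.168. Gm4951, chosen after its values were seen, differed by 1.46 (SE 0.40, adjusted p = 0.183), and Gbp8, likewise chosen, by 0.86 (adjusted p = 0.312). Gm1966, the 1 relative with HSC below MPP, differed by -0.914 (limma adjusted p = 0.0995). Its HSC and MPP arrays did not overlap in either genotype. For the genotype, none of the 10 passed: 6 were higher and 4 lower in NFAT5-deficient than in wild-type HSC (median 0.09), and 8 and 2 in MPP (median 0.25). Iigp1 differed by 0.86 between NFAT5-deficient and wild-type HSC (SE 0.51, limma adjusted p = 0.866) and Gvin1, a giant GTPase gene, by -0.16 (SE 0.13, adjusted p = 0.913).

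Upstream of these GTPases, 17 of 19 interferon-gamma signalling genes were measured. Ifng itself averaged 5.09 to 5.37 over the 4 groups, within low signal. The receptor chain gene Ifngr1 averaged 8.54 ± 0.24 in NFAT5-deficient and 8.73 ± 0.57 in wild-type HSC, and 8.81 ± 0.16 and 9.03 ± 0.46 in MPP (SD, n = 3 each). Irf1, which encodes an activator of GBP promoters, averaged 9.63 ± 0.72 in NFAT5-deficient and 8.36 ± 0.61 in wild-type HSC (SD, n = 3 each), a difference of 1.27 (SE 0.53, limma unadjusted p = 0.0368, adjusted p = 0.792). Its range of 8.85 to 10.26 overlapped 7.87 to 9.03. Stat2 differed by 1.06 (SE 0.56, limma adjusted p = 0.852). In HSC, NFAT5-deficient cells were above wild-type for 7 signalling genes and below for 10, with 0 called and a median of -0.09.

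Other interferon targets showed no call for the genotype either. Of 25 other genes typically induced by interferon gamma, 22 were measured, with 12 higher and 10 lower values in NFAT5-deficient than in wild-type HSC (median 0.02). The chemokine gene Cxcl9 differed by -0.84 and Ido1, a tryptophan-degrading enzyme gene, by -0.38 (limma adjusted p = 0.779 and 0.792), both low in NFAT5-deficient HSC (5.59 ± 0.08 and 5.11 ± 0.21, SD, n = 3 each). Of 36 type I interferon-stimulated genes, 34 were measured, with 20 higher and 14 lower (median 0.09). Slfn5 differed by 2.11 (SE 0.69) and Ifit1 by 0.81 (SE 0.29), each with a limma adjusted p of 0.779. All 22 genes known to load or act with GBPs and IRGs were measured, with 16 higher and 6 lower (median 0.15). Ube2l6, the conjugating enzyme gene for ISG15, differed by 1.01 (SE 0.29, limma adjusted p = 0.772) and the autophagy gene Atg16l1 by -1.82 (SE 0.83, adjusted p = 0.807). In MPP the genotype medians of these 4 lists lay between -0.06 and 0.05, with 0 called.

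Between HSC and MPP over both genotypes, the same 4 lists had median differences of -0.03 (signalling), 0.03 (other interferon-gamma targets), 0.09 (type I interferon-stimulated) and -0.01 (partners). Those values lie near the 0.06 of all genes, and the GTPase medians were 0.43 for the members and 0.29 for their relatives. The difference between lists was not tested.

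**Figure D4:**
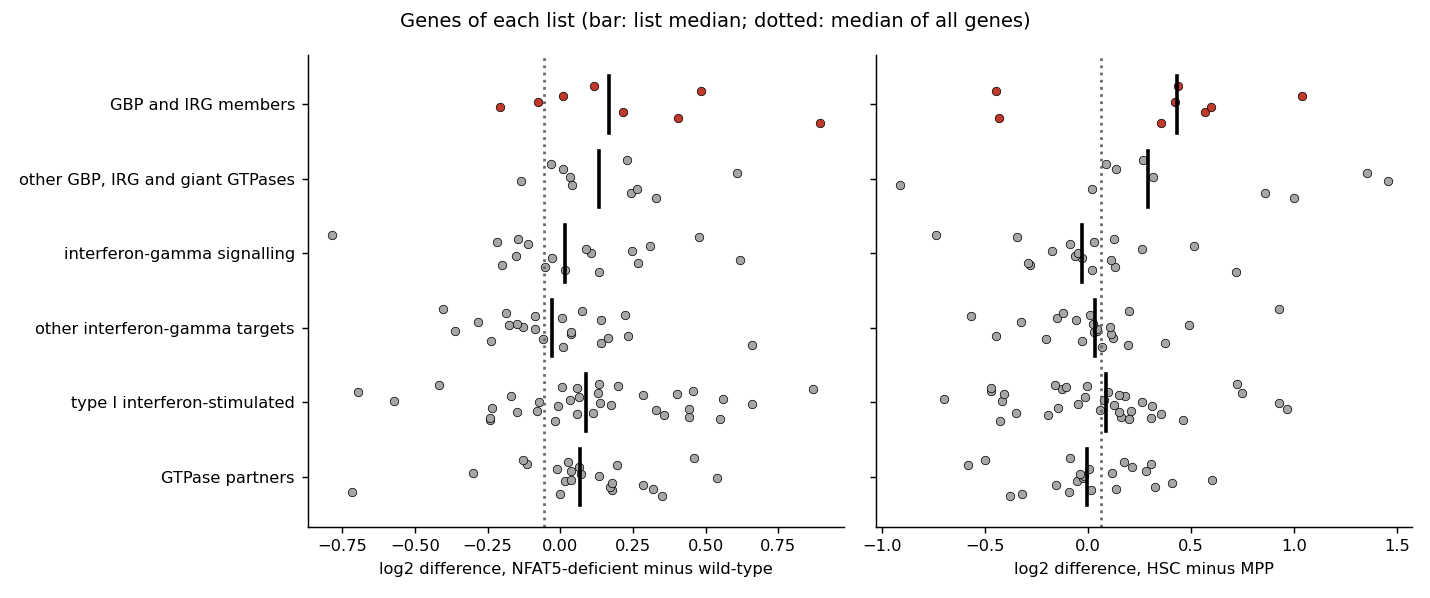
Log2 differences of the genes of each list, NFAT5-deficient minus wild-type over both populations (left) and HSC minus MPP over both genotypes (right); points are genes, bars list medians and dotted lines the median of all 19494 genes. On the right, the GTPase lists have medians of 0.43 and 0.29 and the other 4 lists medians from -0.03 to 0.09.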

How the data were processed

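Per the submitters' processing notes, the arrays were handled with RMA and limma, named without roles or versions in the sources used here; the authors deposited log2 intensities, 1 value per probe set and array (2.514 to 13.28). Amplification started from 300 pg of RNA for each array, per the labels. The log2 scale was read from the values. No scan date or detection call was used, so technical batches were not tested, and the number of arrays limits the precision.

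Of 22142 probe sets, 19527 had 1 gene symbol, 0 had several and 2615 had none. For the 33 genes with several probe sets the brightest was used, which left 19494 genes; each measured member had 1. limma 3.58.1 (R 4.3.3) fitted the 4 group means over 12 arrays with an intensity trend, for 7 comparisons, with Benjamini-Hochberg adjustment over all genes and no filter on dim genes. The fit was tested on simulated data with changes larger than any member difference here. That test does not show whether changes of the members' size would be called. Permutation tests (SciPy 1.17.1) were exact. Figures were drawn with Python 3.11.15 and matplotlib 3.10.9.

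All members were to be named, and of each other list the called genes or, with none called, the 2 with the smallest p in the HSC genotype comparison. Members and lists were chosen with earlier results of these data known. Lists of other cell types were B cell, T and NK cell, monocyte and macrophage, dendritic, endothelial and erythroid markers. Alternatives varied the dim-gene filter, variance prior, arrays in the fit, scaling, array weights, probe set rule, replicate block and threshold, and left out arrays.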

Additional observations from a re-analysis of the deposited data

How the results depend on the processing

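No member was called in any of 7 comparisons under the other settings tried (25 for each comparison of 2 groups, 24 for the interaction and for the comparisons over both populations or both genotypes). Of 44 member differences recomputed, which did not cover every member in each comparison, 32 kept 1 sign throughout and 12 turned somewhere. Without NFAT5-deficient HSC array 70 and wild-type HSC array 66, which leaves 2 arrays in each HSC group, the HSC genotype differences turned to -0.118 for Gbp4, -0.163 for Gbp9, -0.0121 for Igtp and -0.388 for Irgm2. The median member differences were then -0.14 in HSC, -0.0456 for the interaction, 0.253 for HSC minus MPP in NFAT5-deficient cells and -0.0891 for the genotype over both populations, and F830016B08Rik was no longer called (0 relatives called). Without wild-type HSC arrays 66 and 67, where the lone wild-type HSC array is assumed to vary like the other groups, Gbp9 turned to -0.351 and Irgm2 to -0.272 in HSC, Gbp2 to -0.265 for HSC minus MPP in wild-type, and the medians were -0.0573, -0.00186 (interaction) and 0.663 (HSC minus MPP in wild-type). Gbp4 in MPP turned to 0.0282 with centred arrays and 0.025 with quantile normalization, and Gbp3 for HSC minus MPP in wild-type to -0.00452 with centring.

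Leaving out each array in turn, the median ran from -0.0538 to 0.385 (HSC genotype), 0.0411 to 0.314 (interaction) and 0.253 to 0.52 (HSC minus MPP in NFAT5-deficient), with the lowest each time without NFAT5-deficient HSC array 70. Ranges that crossed 0 were, in HSC, -0.236 to 0.0829 for Gbp3, -0.0164 to 0.713 for Gbp4, -0.101 to 0.263 for Gbp9 and -0.169 to 0.302 for Irgm2. In MPP they were -0.111 to 0.0677 for Gbp4, -0.0923 to 0.307 for Gbp7, -0.462 to 0.583 for Irgm1 and -0.147 to 0.612 for Irgm2. For HSC minus MPP they were -0.0951 to 0.426 for Gbp2 and -0.111 to 0.153 for Gbp3 in wild-type cells, and -0.549 to 0.496 for Irgm1 in NFAT5-deficient cells. Relatives called ran from 0 to 1. HSC and MPP arrays with the same title number deviated from their group means with correlations of -0.0137 to 0.0641 across genes. The numbers were therefore not taken to pair arrays in the main fit. The counts, differences and means by title number given above are descriptive only. With the title number as a replicate block, Igtp had an adjusted p of 0.229 over both genotypes, F830016B08Rik 0.169 and Gm4951 0.0495, so F830016B08Rik was no longer called and Gm4951 was, and no member's call changed. At adjusted p under 0.1, 2 relatives were called for HSC minus MPP over both genotypes: F830016B08Rik, higher in HSC, and Gm1966, lower (-0.914). The type I interferon-stimulated gene Ifitm3 was also called there, and with the dim-gene filter or quantile normalization. At 0.01, 0 relatives were called.

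Counts over all genes moved more: for HSC minus MPP over both genotypes 119 were called, 71 to 112 with an array left out and 52 to 218 otherwise; in wild-type 32, 11 to 30 and 5 to 72; in NFAT5-deficient 41, 5 to 32 and 3 to 62. For the genotype, counts were 0 in HSC (0 to 3 and 0 to 30), 1 in MPP (0 to 4 and 0 to 7), 0 for the interaction (0 to 1 and 0 to 9) and 0 over both populations (0 to 2 and 0 to 13). The cause was not tested.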
